A study of Arabidopsis thaliana with 4 samples.

Results

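The genes described here are 8 genes of the chloroplast genome: psaA, psaB and psaC of photosystem I, psbA, psbB, psbC and psbD of photosystem II, and rbcL, which encodes the large subunit of Rubisco. They were chosen by their names in the platform annotation, and each was represented by 1 probe set, a group of short probes for 1 transcript. They make up 8 of the 69 chloroplast-encoded genes and of the 13356 genes in all that had a named probe set. Their transcripts were measured in whole wild-type seedlings of Arabidopsis thaliana, accession Ler, aged 7 d and kept under low light, on 4 ATH1 arrays, with 1 array in each of 4 groups. The groups were total RNA of non-stressed seedlings (control), total RNA of seedlings after 12 h of hypoxia, large-polysome RNA of non-stressed seedlings, and large-polysome RNA after 12 h of hypoxia. The labels give 12 h for the large-polysome control and no time for the total RNA control, so the ratios that use the latter array may include a difference in sampling time. Shoot and root transcripts were both present. Among the former, LHCB4.1 lay between 10562 and 16446 in intensity, and among the latter PYK10 lay between 12709 and 19211. The root markers EXPA7 and EXPA18 were weaker in hypoxia, EXPA7 at 95.6 and 105 on the hypoxia arrays, below the floor used here, and EXPA18 at 860 in total RNA of control and 243.5 in hypoxia. All 3 measured root markers had log2 ratios below 0 for hypoxia over control in total RNA (PYK10 at -0.44, EXPA7 at -1.29 or lower, EXPA18 at -1.82) and for large-polysome signal over total signal in control (-0.60, -1.07 and -0.67 in the same order). Their part in the ratios of the 8 genes was not tested.

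The reaction centre of photosystem I is built on PsaA and PsaB, with PsaC holding iron-sulfur clusters that pass electrons on to ferredoxin. That of photosystem II is built on D1 (psbA) and D2 (psbD), flanked by the inner antenna proteins CP47 (psbB) and CP43 (psbC). D1 is damaged by light and replaced continually, so psbA is known as a heavily translated chloroplast mRNA in illuminated leaves. These mRNAs are made and translated inside the chloroplast, on ribosomes of bacterial type, whereas most other subunits of the same complexes are encoded in the nucleus and imported. Rubisco likewise joins a chloroplast-encoded large subunit to small subunits from nuclear genes.

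The values are probe set intensities on a linear scale, set to the same average on each array, so that each ratio is read against the average signal of the arrays. Intensities of different genes are not compared, because probe sets differ in response. A difference of 2-fold, a log2 ratio of 1, served to count genes. With 1 array per group there is no replicate, no p-value could be computed and the spread between samples is unknown. In these whole-seedling extracts, fewer green cells and less chloroplast RNA per cell cannot be told apart. As a yardstick for probe error alone, paired probe sets for 1 and the same gene (30 genes with measurable signal on every array) differed in log2 ratio by a median of 0.29 to 0.49, depending on the comparison. The 95th percentiles of these differences ranged from 0.94 to 1.58. All 8 genes were above the floor on every array, an intensity of 139 that is the highest 40th percentile among the arrays. The closest to it was rbcL on the large-polysome control array, at 2.21 times the floor.

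In photosystem I, the intensity of psaA in total RNA was 2934 for control and 2050.0 for hypoxia, and in large-polysome RNA it was 444 for control and 1964 for hypoxia. One array thus stood apart, since the other 3 values lay within 1.49-fold of each other and their geometric mean was 5.13-fold above the large-polysome control. Its neighbour psaB had 9833 and 5639 in total RNA of control and hypoxia, and 6069 and 13386 in large-polysome RNA. For psaB the large-polysome hypoxia array was the high one, at 1.92 times the geometric mean of the others. The small subunit gene psaC was the most even of the 8, at 1686 in control and 1388 in hypoxia for total RNA and 1622 and 2170.0 for large-polysome RNA, a range of 1.56-fold.

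In photosystem II, psbA spanned the widest range of the 8 genes, 10.7-fold. Its intensity was 5286 in total RNA of control and 1382 in total RNA of hypoxia, against 494 and 1306 in large-polysome RNA. The total RNA control was high and the large-polysome control low, while both hypoxia arrays had similar values. The partner of D1 in the reaction centre, D2, did not share this: psbD had 1249 and 2110.2 in total RNA of control and hypoxia, and 773 and 1239 in large-polysome RNA. For psbD the total RNA hypoxia array was highest, at 1.99 times the geometric mean of the others.

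The CP47 gene psbB resembled psaA, with 2783 and 3320.5 in total RNA of control and hypoxia, and 618 and 2240 in large-polysome RNA. Without the large-polysome control its values lay within 1.48-fold of each other. The CP43 gene psbC had 3001 in control and 2265 in hypoxia for total RNA, 2149 and 3560 for large-polysome RNA, and a range of 1.66-fold. The Rubisco gene rbcL had 601 and 640 in total RNA of control and hypoxia, and 307 and 775 in large-polysome RNA. It too was low on the large-polysome control array alone, and its other 3 values lay within 1.29-fold. The large-polysome control was the lowest array for 6 of the 8 genes, all but psaB and psaC. It was also the lowest for 28.6% of named genes above the floor on all 4 arrays and for 55.2% of the other chloroplast-encoded genes.

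**Figure D1:**
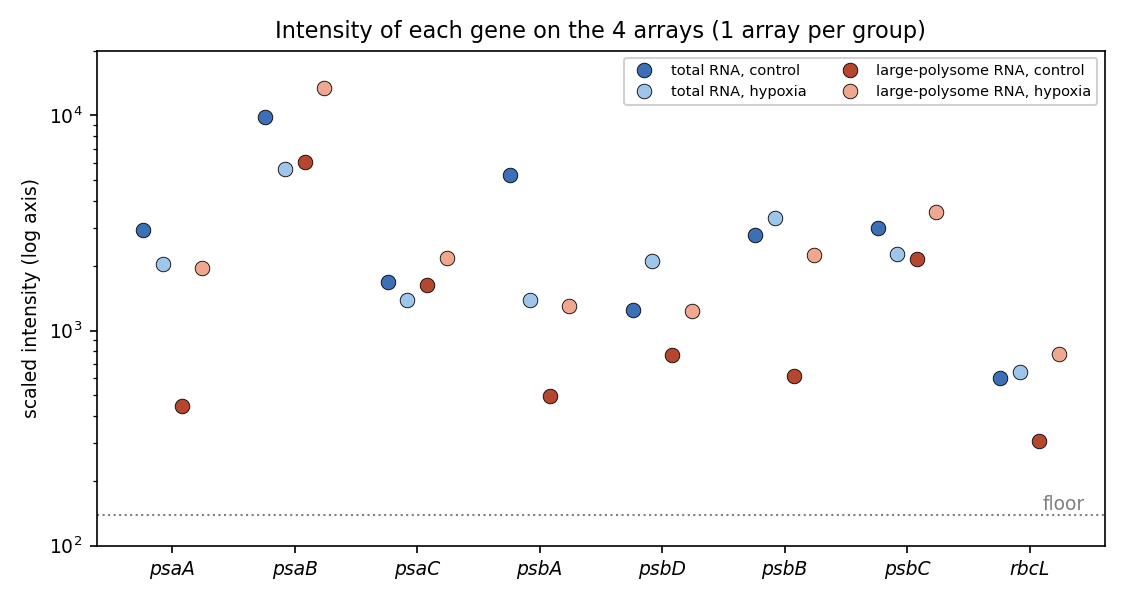
Scaled intensity (log axis) of each of the 8 genes on the 4 arrays, with 1 point per array and the floor of 139 as a dotted line. The dark red points of the large-polysome control lie lowest for psaA, psbA, psbD, psbB, psbC and rbcL, and psbA in total RNA of control lies far above its other values.

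In total RNA the photosystem genes differed by under 2-fold between hypoxia and control apart from psbA. That gene was 3.83-fold lower in hypoxia, a log2 ratio of -1.94. It was the 1 gene of the 8 beyond 2-fold, where 14.1% of 7640 measured named genes were (8.72% lower). Its ratio was also the lowest of the 69 chloroplast-encoded genes. The 7 others ran from -0.80 for psaB to 0.76 for psbD, and 5 of the 8 genes were below 0, as were 54% of named genes. The median of the 8 was -0.34, against -0.24 for the 61 other chloroplast-encoded genes and -0.06 for all named genes. The sign of psaC, -0.28, was not stable: with arrays scaled on the spiked controls it was 0.02. Under that scaling psbD passed 2-fold, at 1.06.

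In large-polysome RNA all 8 genes were higher in hypoxia than in control relative to the average gene, and 5 were at least 2-fold higher, where 8.07% of 7315 measured named genes were. The photosystem I gene psaA was 4.42-fold higher and the CP47 gene psbB 3.62-fold higher, which placed them at ranks 3 and 4 among the 69 chloroplast-encoded genes. D1 gene psbA was 2.64-fold higher, rbcL 2.52-fold and psaB 2.21-fold. The smallest ratios were those of psbC, psbD and psaC, with log2 values of 0.73, 0.68 and 0.42. The median of the 8 was 1.24. Among the other chloroplast-encoded genes the median was 0.45, with 75.4% above 0 and 23% at least 2-fold higher, and among all named genes 45.3% were above 0. Relative to the median of the other chloroplast-encoded genes, psaA and psbB kept log2 ratios of 1.70 and 1.41, psaB, psbA and rbcL were under 2-fold, and psaC was at -0.03. With arrays scaled on the spiked controls, psaA, psbA and psbB stayed beyond 2-fold and psaB and rbcL did not.

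**Figure D2:**
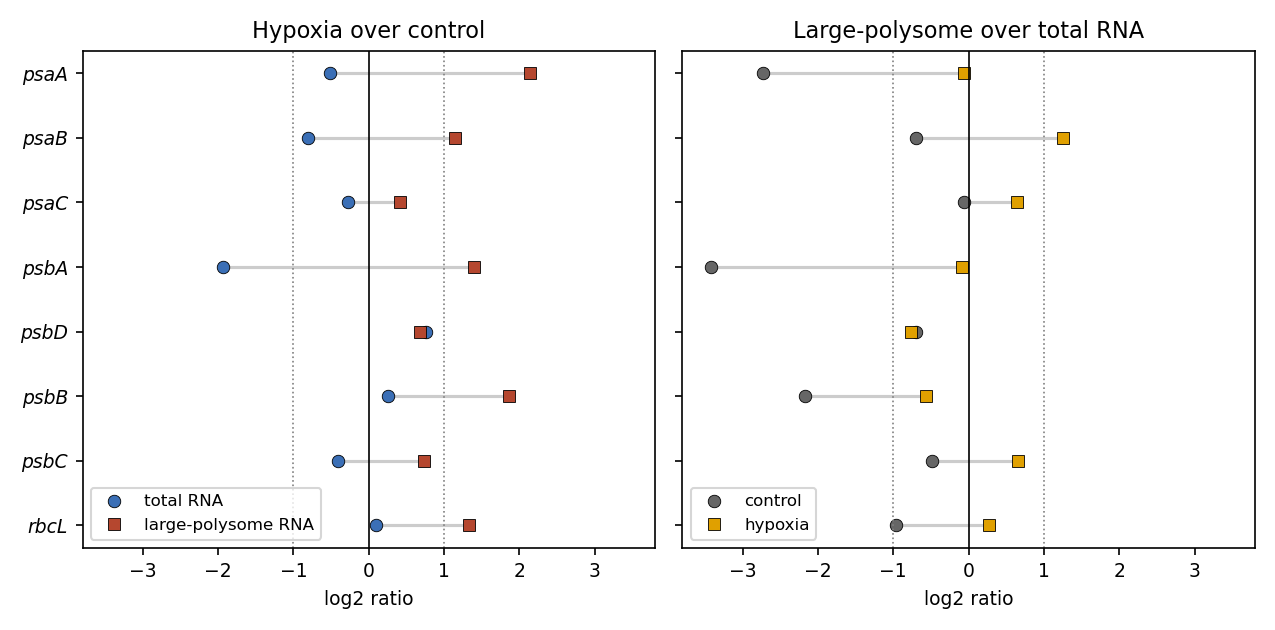
Log2 ratios of the 8 genes, hypoxia over control in each fraction (left) and large-polysome over total RNA in each condition (right), with dotted lines at 2-fold. Large-polysome ratios lie to the right of total RNA ratios for every gene but psbD, where the points overlap at 0.68 and 0.76.

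The 5 genes that were lower in total RNA (psaA, psaB, psaC, psbA and psbC) were all higher in large-polysome RNA, so their ratios had opposite signs in the 2 fractions. This combination was found in 10.7% of 5847 named genes above the floor on all 4 arrays and in 58.6% of 58 other chloroplast-encoded ones, so it was common in the chloroplast genome. The other 3 genes, psbB, psbD and rbcL, were higher in both fractions. The place of psaC among the 5 depended on the scaling. Its total RNA ratio was 0.02 with arrays scaled on the spiked controls. Its large-polysome ratio was -0.03 with the other chloroplast-encoded genes set to 0. The opposite combination, higher in total and lower in large-polysome RNA, occurred in none of the 8, in 12.2% of the named genes and in 17.2% of the other chloroplast-encoded genes. Across the 8 genes the ratios in the 2 fractions, which share no array, had a Pearson r of -0.18 and a Spearman rho of -0.29. Across the 58 others they had -0.72 and -0.55. Genes of 1 genome share arrays and transcripts and are not replicates, so these are descriptions.

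**Figure D3:**
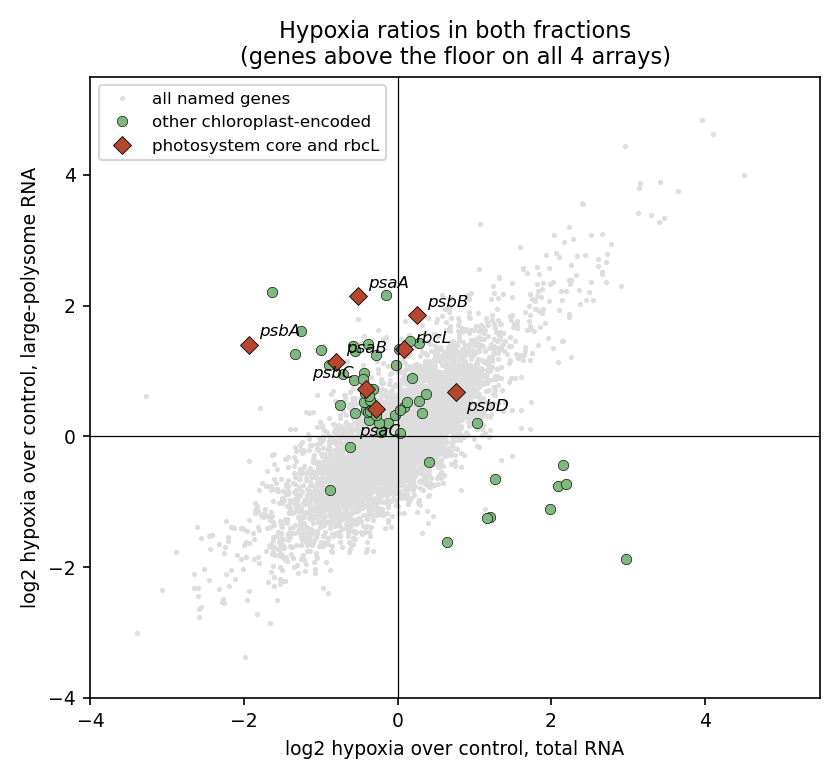
Log2 hypoxia over control in large-polysome RNA against the same in total RNA, for genes that exceeded the floor on all 4 arrays. The 8 genes (red diamonds) all lie above 0 on the vertical axis, with psbA farthest left at -1.94, while some other chloroplast-encoded genes (green) lie at the lower right and most named genes (grey) follow the diagonal.

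In control seedlings all 8 genes had less signal in large-polysome RNA than in total RNA relative to the average mRNA (6 of 8 with arrays scaled on the spiked controls), and 3 were beyond 2-fold. The D1 gene psbA was 10.7-fold lower, psaA 6.61-fold and psbB 4.50-fold. Only 2.78% of 7509 measured named genes were at least 2-fold lower. Among all of these, psbA and psaA held the lowest 2 ratios and psbB the 7th lowest. The lowest log2 ratio among the other chloroplast-encoded genes was -2.50, between psaA at -2.72 and psbB at -2.17. The log2 ratio of rbcL was -0.97, followed by psaB at -0.70, psbD at -0.69 and psbC at -0.48, and psaC lay near 0 at -0.06. Ratios below 0 were found in 52.7% of named genes. Of the other chloroplast-encoded genes 65.6% were below 0 and 16.4% at least 2-fold lower, and their median was -0.37, against -0.83 for the 8. Scaled on the spiked controls, which moved each of the 8 genes up by 0.67, psbC and psaC lay above 0, at 0.19 and 0.62, and psbA, psaA and psbB stayed beyond 2-fold lower.

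In hypoxic seedlings this deficit was largely gone for psbA and psaA and smaller for psbB. It remained for psbD, whose log2 ratio had been -0.69 in control. The log2 large-polysome over total ratio was -0.08 for psbA and -0.06 for psaA. Only psaB was beyond 2-fold, at 2.37-fold higher in large-polysome RNA, where 1.06% of 7078 named genes were. The remaining genes ran from -0.77 for psbD and -0.57 for psbB through 0.28 for rbcL to 0.64 for psaC and 0.65 for psbC, and 4 genes lay on each side of 0. Their median was 0.11, and that of the other chloroplast-encoded genes was 0.24.

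The change of association, the log2 difference between the ratios in hypoxia and in control, was above 0 for 7 of the 8 genes and at least 2-fold for 6, with a median of 1.42. Scaled on the spiked controls, 3 genes reached 2-fold, the median was 0.76 and psbD stood at -0.74. The median of all named genes was -0.67 under that scaling. Under the main scaling, 3.03% of 5847 named genes reached 2-fold upward and 49% were above 0. The largest value was that of psbA at 3.34, rank 3 from the highest of the 5847, followed by psaA at 2.66, rank 5. The photosystem I gene psaB stood at 1.94, psbB at 1.60, rbcL at 1.24, psbC at 1.13 and psaC at 0.70. The D2 gene psbD was the exception at -0.08, since its signal was higher in hypoxia by about the same factor in both fractions. The other chloroplast-encoded genes reached up to 3.85, above psbA. Their median was 0.76, with 81% above 0, 37.9% at least 2-fold higher and 15.5% lower by as much. Set against that median, psbA, psaA and psaB remained at least 2-fold higher, with log2 values of 2.58, 1.91 and 1.19, and psbB, rbcL and psbC did not. The large-polysome control array enters both this measure and the hypoxia ratio in large-polysome RNA, and it was the lowest array for 6 of the 8 genes. On it psaA, psbB and rbcL stood apart, and psbA lay 4.29-fold below the geometric mean of its other arrays.

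Genes whose proteins pair within a complex (psaA with psaB, psbA with psbD, psbB with psbC) differed beyond probe error in some comparisons and not in others. Of the 15 differences, for 3 pairs in 5 comparisons, 6 exceeded the 95th percentile between probe sets of 1 gene and 9 lay within it. For the photosystem I pair, the log2 large-polysome over total ratio in control was lower for psaA than for psaB by 2.03, more than the 95th percentile of 1.58 between probe sets of the same gene in this comparison. The hypoxia ratios of psaA and psaB in total RNA differed by 0.29, about the median probe difference, and their changes of association by 0.72, within the 95th percentile of 1.02. They differed by 1.31 in hypoxia association, where that percentile was 1.25. For the photosystem II pair, psbA lay below psbD by 2.73 in control association and by 2.69 in the hypoxia ratio in total RNA, where the 95th percentile was 0.94, and lay above it by 3.41 in the change of association. In large-polysome RNA and in hypoxia association they differed by 0.72 and 0.69, within probe error. The antenna genes psbB and psbC differed by 1.69 in control association, just beyond that of probe pairs, and by 0.47 in the change of association, equal to the median probe difference. These differences between genes do not depend on a scaling that multiplies an array by a constant.

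Several of the 8 genes are transcribed together with others. In Arabidopsis and other land plants psaA, psaB and rps14 form 1 unit, psbD, psbC and psbZ another, and psbB, psbT, psbH, petB and petD one more, while psaC lies within a row of ndh genes; psbA and rbcL have transcripts of their own. In control seedlings the log2 large-polysome over total ratio went from lower to higher along the psbB unit. It was -2.17 for psbB, -1.57 for psbT, a small photosystem II subunit, and -0.42 for psbH. For the cytochrome b6f genes it was -0.19 for petB and 2.53 for petD.

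The psaA unit had the same order, with -2.72 for psaA, -0.70 for psaB and at least 0.90 for the ribosomal protein gene rps14, whose total RNA control signal was below the floor. In the psbD unit the range was smaller, -0.69 for psbD, -0.48 for psbC and 0.09 for psbZ. The genes around psaC showed no such order. From the start of the row ndhH stood at -0.50, ndhA at -0.57, ndhI at -0.35 and ndhG at 1.56. After these came ndhE at 0.58, psaC at -0.06 and ndhD at -0.90. The small gene psbN, which lies on the other strand between psbT and psbH, stood at 0.62.

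In hypoxia the last genes of the psbB and psaA units had the opposite sign, with petD at -2.33 and rps14 at -2.97. The first genes psbB and psaA were at -0.57 and -0.06. The rps14 intensity in large-polysome RNA of hypoxia was 144, close to the floor. A change from above to below 0 was not particular to last genes. It was also found for ndhG inside its row, from 1.56 to -1.54. Outside these units it was found for ycf3 (1.01 to -1.91) and petN (1.16 to -1.69), among others. The last gene of the psbD unit, psbZ, stayed above 0, at 0.71. In total RNA petD was 2.97 higher in hypoxia on the log2 scale, from its control signal near the floor. The gene psbB at the start of the same unit was at 0.25. The psbD and psbC reading frames overlap at their ends, yet in total RNA psbD was at 0.76 and psbC at -0.41. That difference of 1.16 exceeds the 95th percentile of probe pairs in this comparison. In large-polysome RNA they differed by 0.05.

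**Figure D4:**
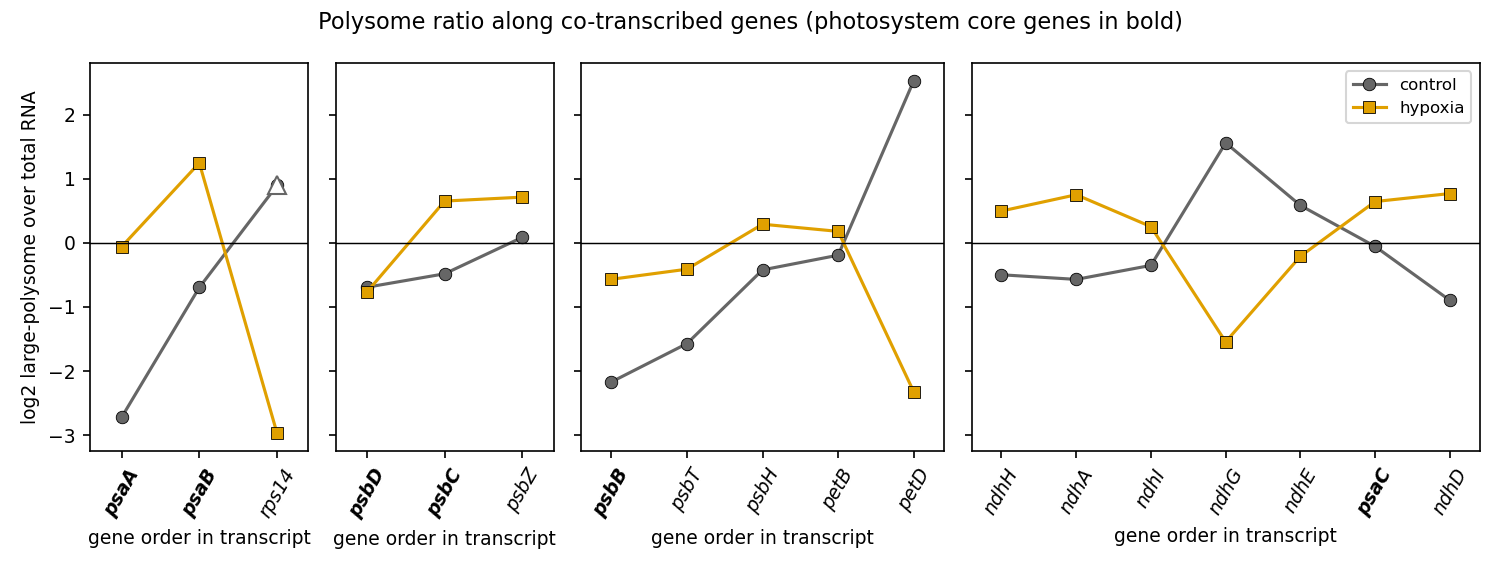
Large-polysome over total ratio (log2) along 4 sets of co-transcribed genes, in control (grey circles) and hypoxia (orange squares), with the genes described here in bold and an open triangle for a bound. The control ratios run from psbB at -2.17 to petD at 2.53 and from psaA at -2.72 to rps14 at 0.90 or more. In total RNA of control, petD is near the floor and rps14 below it. In hypoxia petD and rps14 are the lowest of their units, with rps14 close to the floor in large-polysome RNA.

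All 15 genes written down as small subunits and assembly factors of the photosystems were measured. In large-polysome RNA 14 of the 15 were higher in hypoxia, with a median log2 ratio of 0.53 against 1.24 for the 8 genes, and 3 were at least 2-fold higher. These were psbT at 1.44, the assembly factor gene ycf4 at 1.24 and psaI at 1.09. The lowest were ycf3, which acts in photosystem I assembly, at -0.73 and psbM at 0.05. The change of association had a median of 0.63 in this list, with 5 genes at least 2-fold higher and 1, ycf3, lower at -2.92. In total RNA the highest were ycf3 at 2.19 and psbN at 1.03, and the lowest were psaI at -0.89 and psbK at -0.44. In control association the lowest were psbT at -1.57 and ycf4 at -1.07, and the highest were ycf3 at 1.01 and psbN at 0.62.

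Nuclear genes of the same complexes had flatter ratios. Of 53 genes written down for nuclear photosystem subunits, antenna proteins and Rubisco, 10 had a named probe set, so they cover a small part of the pathway. In large-polysome RNA their median log2 ratio of hypoxia over control was -0.01 and 5 of 10 were above 0. Among photosystem I subunits PSAE-1 stood at 0.37 and PSAN at -0.09. Among photosystem II genes PSBW stood at 0.04, PSBY at -0.06 and the assembly protein gene PSB27 at -0.20.

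The antenna genes LHCB4.1, LHCB4.2 and LHCB4.3 stood at 0.30, 0.27 and -0.26 in the same comparison. RCA, the Rubisco activase gene, stood at 0.11, and AT5G28500, a Rubisco accumulation factor gene, was at -1.58 or lower, from an intensity of 416 to below the floor. In total RNA the 10 genes ran from -0.98 for AT5G28500 to 0.43 for PSBY. In control association they ran from -0.72 for LHCB4.2 to 0.51 for AT5G28500, and their median was 0.13. Their change of association had a median of 0.16 over 9 genes, from -0.53 for PSB27 to 0.51 for LHCB4.2, and none reached 2-fold. Of 6 nuclear factors written down for the expression or assembly of the 8 genes, 2 had a named probe set. LPA1, which aids photosystem II assembly, had a change of association of 0.12, and AT5G42310, an RNA-binding factor for chloroplast mRNAs, had -0.15. None of the 6 sigma factor genes, which direct the chloroplast RNA polymerase to promoters, had a named probe set.

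The average profile of the 8 genes over the 4 arrays was compared with those of 5839 other genes, 58 of them chloroplast-encoded. Likeness was measured as the Euclidean distance between log2 intensities over the 4 arrays, each profile centred on its own mean, among genes that exceeded the floor on all 4 arrays. The 3 nearest genes to the average profile were nuclear: BGLU46 at 0.19, AT2G18210 at 0.20 and AT5G37130 at 0.26. Of the 8 genes rbcL was the nearest to this average, at 0.42, and psbA the farthest, at 1.60. The profile of rbcL had close neighbours in AT1G67800 at 0.10, AT2G43535 at 0.11 and AT3G48760 at 0.12. That of psbA had none as close, with AT2G32150 at 1.14, AT1G35617 at 1.18 and AT1G23120 at 1.32.

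Other measures of the arrays are given beside these ratios. The control probe set for 25S ribosomal RNA had intensities of 351.8 and 358.0 in total RNA of control and hypoxia. On the large-polysome arrays it had 64.3 in control, below the floor, and 254.5 in hypoxia. It was thus low on the array on which psaA, psbA, psbB and rbcL were low. The control for 5S ribosomal RNA differed from this, with 139.1 and 993.9 in total RNA and 47.0 and 60.9 on the large-polysome arrays. For actin, the signal at the 3' end over that at the 5' end was 1.39 in control and 1.22 in hypoxia for total RNA, and 2.45 and 2.15 for large polysomes. The same measure for GAPDH was 0.96 and 1.12 for total RNA and 1.11 and 1.29 for large polysomes. The spiked controls had a geometric mean of 975 on the large-polysome control array and of 1253 to 1554 on the others. The number of scans was 2 for the total RNA hypoxia array and 1 for each of the others. The part of these differences in the ratios of the 8 genes was not tested.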

How the data were processed

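Per the file headers, RNA from 4 seedling samples was hybridised to Affymetrix ATH1 arrays of 1 chip lot. The deposited values are linear intensities, 1 for each of 22810 probe sets. How probes were summarised, and with what background correction, is not given in the sources used here. The trimmed mean between the 2nd and 98th percentile lay between 495 and 496 on every array, which shows that the authors scaled the arrays alike. The settings files that come with the arrays hold other text, of which the number of scans was read, per the file headers.

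Intensities were rescaled to the same trimmed mean over 22746 non-control probe sets (factors 0.999 to 1.001). The floor was the highest 40th percentile over the arrays, 139. Lower values were raised to it before the log2 step, and no ratio was formed where both arrays were below it. Probe sets were named through the platform annotation and the RefSeq table of TAIR10.1, used for names and gene order only. Of the probe sets, 13513 had 1 gene (13436 matched RefSeq), 503 had several, and 8730 that the annotation does not list are unnamed here. Where a gene had several probe sets, the brightest was used. All 8 genes matched, with probe set names ending in _at, without the marks for sets shared between transcripts. The steps were tested on simulated data. Python 3.11.15, pandas 2.3.3 and NumPy 2.4.6 were used.

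The 5 comparisons have 1 array per group, so no test was made and the number of arrays limits the precision. The genes and lists were chosen with earlier results of these data known, and the co-transcribed sets after the values had been seen. Named were all 8 genes, all measured genes of lists with 6 or fewer, the highest and lowest 2 of longer lists, and the 3 nearest profiles. Alternatives were quantile normalization, scaling on 18 spiked control probe sets, the other chloroplast-encoded genes set to 0, the values as deposited, a floor at the 60th percentile, no floor with 16 added, and the mean of a gene's probe sets.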

Additional observations from a re-analysis of the deposited data

Results flagged for a closer look

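For 3 of the 8 genes the hypoxia ratio ran in opposite directions in the 2 fractions with at least 1 of the ratios beyond 2-fold. These were psbA, psaA and psaB, with changes of association of 3.34, 2.66 and 1.94 on the log2 scale. For psaB the ratio of large-polysome over total RNA also changed sign between control and hypoxia, by the same 1.94. It changed sign too for rbcL (-0.97 to 0.28), psbC (-0.48 to 0.65) and psaC (-0.06 to 0.64). Opposite directions were not particular to these genes. Of 58 other chloroplast-encoded genes, 58.6% were lower in total and higher in large-polysome RNA, at any size. Among them psaI (-0.89 and 1.09) and ycf4 (-0.28 and 1.24) also had 1 ratio beyond 2-fold. With 1 array per group these differences were not tested.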

How the results depend on the processing

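No paired analysis was possible because each group has 1 array, and no array could be left out. Of the 40 ratios of the 8 genes, 16 were beyond 2-fold. All 40 kept their sign, and all 16 stayed beyond 2-fold, after quantile normalization, with the values as deposited, without a floor and with the mean of a gene's probe sets. With the floor at the 60th percentile rbcL had no change of association, and the other 39 kept their sign and their side of 2-fold.

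When the spiked controls set the scale, the median over all genes moved by 0.28, -0.31, 0.62, 0.01 and -0.65 in the 5 comparisons in order (the 8 genes by up to 0.67), and 37 signs and 11 of the 16 were kept. The signs that turned were those of psaC in total RNA (0.02) and in control association (0.62) and of psbC in control association (0.19). The median of the 8 genes became -0.04 for hypoxia in total RNA, -0.16 for control association and 0.76 (from 1.42) for the change of association. At least 2-fold were then 2 genes in total RNA (psbD joined at 1.06), 3 in large-polysome RNA and 3 for the change of association. With the other chloroplast-encoded genes at 0, 37 signs and 10 of the 16 were kept, and psaC turned to -0.03 in large-polysome RNA, 0.31 in control association and -0.06 in the change of association. The median became 0.79 for hypoxia in large-polysome RNA and 0.67 for the change of association. At least 2-fold were then 2 genes in large-polysome RNA, 3 for the change of association and 2 for association in hypoxia (psbD joined at -1.01). These shifts follow from the construction of the scalings, which move all genes together.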
